A study of Mus musculus with 6 samples.

Results

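The genes described here are 46 genes of G2/M and mitosis, the last part of the cell cycle, in which a cell with replicated DNA condenses its chromosomes, attaches them to a spindle, separates them and divides. They were taken by symbol from a list of genes with known roles in G2/M and mitosis, with no threshold on a measured value, but the list was drawn up with earlier results of these data known, so its counts are a description. All 46 were found among the 38087 gene IDs of the deposited count tables, and all 46 passed the filter on low counts, so they are 46 of the 16666 genes tested. The lowest count of any of them in any library was 1175.

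Messenger RNA was sequenced from HL-1 cells, 3 libraries after transfection with Circ-INSR siRNA (100 nM, labelled as a circular RNA-INSR knockdown) and 3 libraries after control siRNA, a scrambled sequence. HL-1 is a mouse atrial cardiomyocyte line that came from an atrial tumour of mice carrying the SV40 large T antigen under the atrial natriuretic factor promoter, and its cells beat and divide in culture. Both groups are this 1 line, no untransfected cells were analysed here, and the labels do not tie replicates to separate cultures. The p-values therefore measure how far these libraries scatter, which may be technical. A bulk library does not tell a higher level per cell from more cells in a cell cycle phase.

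Library totals were 68468620 to 77037474 counts after Circ-INSR siRNA and 60024750 to 62523602 after control siRNA. Poly(A) selection favours linear mRNA, so Circ-INSR itself is not measured. Its host gene Insr had 89.2, 89.2 and 89.2 CPM (counts scaled to library size with TMM factors) in Circ-INSR siRNA libraries, against 129, 128 and 104 CPM in control siRNA libraries. Insr was called lower, at a log2 fold change of -0.43 (SE 0.07, edgeR adjusted p = 0.000393), which does not check the knockdown. All 10 atrial cardiomyocyte markers were detected, and their summed level, most of it from Myh6, Actc1, Tnnt2 and Myl7, was 7396 to 7542 CPM after Circ-INSR siRNA, against 6651 to 6925 CPM in controls. They did not move together, with 6 higher, 3 lower and 1 not called (log2 fold change of 0.87 for Actc1, 0.86 for Myl4 and -0.73 for Tnnt2). Among all genes tested, 28.5% were called higher and 28.5% lower. Of the 9 markers of fibroblasts, endothelium and immune cells, Adgre1 was at 0 in every library. The 3 fibroblast markers, most of it Col1a1, summed to 112 to 126 CPM after Circ-INSR siRNA and 159 to 178 CPM in controls, and the 3 endothelial markers, most of it Tek, to 11.8 to 13.0 CPM after Circ-INSR siRNA and 4.51 to 5.17 CPM in controls. Pecam1 was not called and Cdh5 had at most 4 counts in a library. The 3 immune markers, nearly all Cd68, summed to 3.07 to 3.45 CPM after Circ-INSR siRNA and 4.92 to 5.49 CPM in controls. The part of these differences in the results was not tested.

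Entry into mitosis is driven by the kinase CDK1 bound to B-type cyclins, which the CDC25 phosphatases switch on and which Polo-like and Aurora kinases assist. Kinetochores then link chromosomes to the spindle, the spindle checkpoint delays separation until all are attached, and the anaphase-promoting complex (APC/C) with its activator CDC20 ends mitosis by marking cyclin B and securin for destruction. Many of these genes are transcribed in a wave in G2, through FOXM1, B-MYB and the MuvB complex, which bind cell cycle homology regions (CHR), and through NF-Y, which binds CCAAT boxes, and in adult heart muscle most of them are nearly silent.

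Genes of G2/M and mitosis were mostly higher after Circ-INSR siRNA, by small amounts. Of the 46 genes, 33 were called higher and 2 lower, and 11 were not called (quasi-likelihood test of edgeR, p adjusted by Benjamini-Hochberg over all genes tested, threshold 0.05). The 33 are 71.7% of the list, against 28.5% of all genes tested called higher, a comparison without a test. All genes tested include genes with far lower counts than these 46. Among genes with at least 1 CPM in 3 libraries, 4331 of 13412 were called higher. The 2 lower genes, Spc24 and Spc25, stand against 28.5% of all genes called lower, and 57% were called in either direction. The median log2 fold change (Circ-INSR siRNA minus control siRNA) was 0.24 for the 46 genes and -0.0045 for all genes tested. Changes given below as a rise or fall by a value are on this log2 scale. The middle of the list ran from 0.11 to 0.36 (lower and upper quartile), and the extremes were -0.32 (Spc25) and 0.76 (Plk1).

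The changes were frequent but small. Of the 46 genes, 4 were called and at least 1.5-fold higher (Plk1, Ccnb1, Ect2 and Aurka), a share close to the 7.84% of all genes tested. Of the 46, 0 changed by 2-fold, and the share of all genes that did was not computed. The groups did not overlap, with every Circ-INSR siRNA library above every control siRNA library, for 33 of the 46 genes (32% of all genes tested), and every Circ-INSR siRNA library was below every control siRNA library for 2 (31.3% of all genes tested). The summed level of the 46 genes was 8295, 8415 and 8510 CPM after Circ-INSR siRNA, against 7167, 7262 and 7089 CPM after control siRNA, a ratio of the means of 1.17. The median deviation of the 46 genes from the control mean was 0.24, 0.25 and 0.27 on the log2 scale in Circ-INSR siRNA libraries, against -0.02, 0.01 and 0.02 in control siRNA libraries. Standard errors of the log2 fold changes ran from 0.04 to 0.15.

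**Figure D1:**
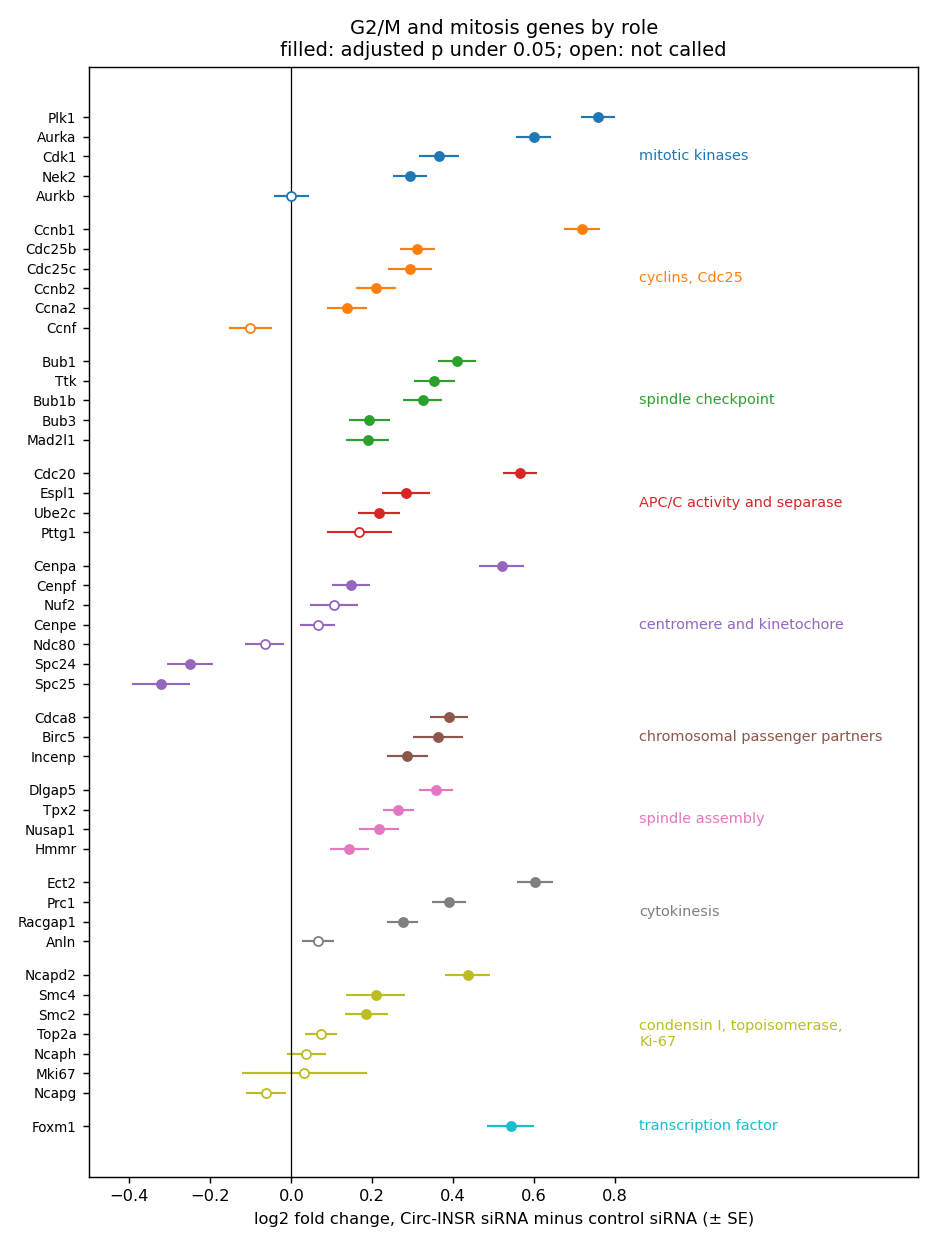
Log2 fold change of each of the 46 genes (Circ-INSR siRNA minus control siRNA, x axis) with its standard error, grouped by role down the page, with filled points for adjusted p under 0.05 and open points for genes not called. Plk1 (0.76) and Ccnb1 (0.72) lie farthest to the right, and Spc24 (-0.25) and Spc25 (-0.32) are the filled points left of 0.

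**Figure D2:**
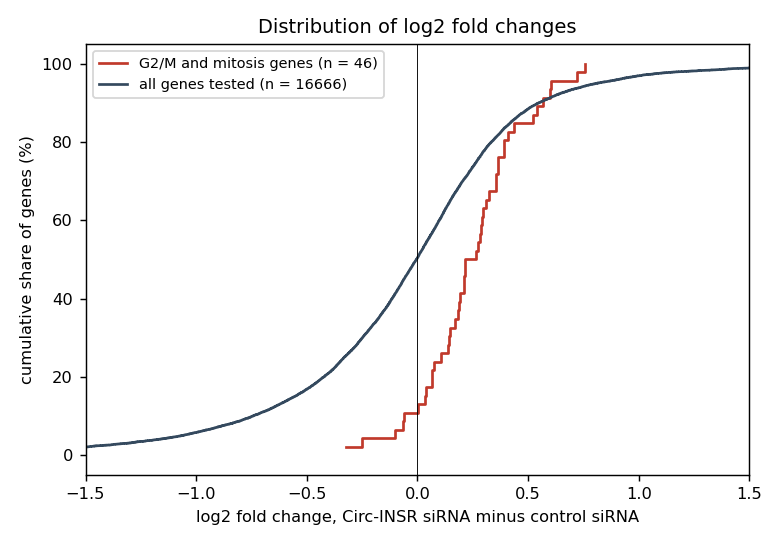
Cumulative share of genes (y axis, %) by log2 fold change (x axis), for the 46 genes and for all 16666 genes tested. The curve of the 46 genes is steep, with its median at 0.24, and crosses that of all genes at the right, where few of the 46 are found.

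The promoters of the most clearly raised genes are printed next, because the transcription of these genes in G2 runs through short elements near the start site. RefSeq windows on GRCm38.p6, from 250 bases before to 50 bases after each annotated start, were held for 37 of the 46 genes. The 100 bases before the start are shown for the 5 genes with the smallest adjusted p and for Spc25, which was lower. They are written 5′ to 3′ on the gene's strand, with a CHR (TTTGAA or TTCGAA) and a CCAAT box in capitals, each searched on both strands.

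Plk1 chr7:122159335-122159434 (plus strand): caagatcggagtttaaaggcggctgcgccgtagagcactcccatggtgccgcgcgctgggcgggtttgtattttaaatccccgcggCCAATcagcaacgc
Ccnb1 chr13:100786487-100786586 (minus strand): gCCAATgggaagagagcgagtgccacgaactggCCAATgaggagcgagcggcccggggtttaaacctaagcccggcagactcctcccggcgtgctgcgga
Aurka chr2:172370571-172370670 (minus strand): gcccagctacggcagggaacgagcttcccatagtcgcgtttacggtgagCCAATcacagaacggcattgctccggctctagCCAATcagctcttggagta
Ect2 chr3:27153879-27153978 (minus strand): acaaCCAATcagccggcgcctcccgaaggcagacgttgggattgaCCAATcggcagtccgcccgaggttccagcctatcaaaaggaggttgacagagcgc
Cdc20 chr4:118437344-118437443 (minus strand): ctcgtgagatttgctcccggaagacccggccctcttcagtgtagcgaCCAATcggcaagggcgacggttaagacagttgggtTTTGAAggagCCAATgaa
Spc25 chr2:69206214-69206313 (minus strand): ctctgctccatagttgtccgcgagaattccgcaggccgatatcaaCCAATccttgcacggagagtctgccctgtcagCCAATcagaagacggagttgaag

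Every one of these 6 stretches held at least 1 CCAAT box, and that of Cdc20 also held a CHR, 18 bases before the start, with a CCAAT box on either side of it. In Plk1, Aurka and Spc25 a CHR lay past the start instead, beginning at base 31, 33 and 25 counted from the start as base 1, and it is in capitals in the short stretches that follow. The window of Ect2 held a CHR outside the stretch shown, and that of Ccnb1 held neither form searched. Forms of the CHR other than TTTGAA and TTCGAA were not searched.

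Plk1 chr7:122159456-122159479 (plus strand): agcgccgcgTTTGAAttcggggag
Aurka chr2:172370524-172370547 (minus strand): aggagaaccTTTGAAttgtaacgg
Spc25 chr2:69206175-69206198 (minus strand): ggtggagagTTTGAAattgaaaga

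Over the whole windows a CHR was found in 28 of 37 genes (75.7%), against 21.7% of the 27025 genes with a RefSeq window, and within 50 bases of the start in 26 (70.3%), against 6.12%. A CCAAT box was found in 29 of 37 (78.4%), against 41.1% of all genes, and both elements in 26 (70.3%), against 8.61%. In 1 of the 37 genes the elements shared a base. Among the 26 genes called higher that have a window 21 held a CHR and 23 a CCAAT box, and among the 11 others 7 held a CHR and 6 a CCAAT box. Spc25, which was lower, held both, as did Plk1 and Aurka. These are matches of letters and show no binding.

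Counts by role, here and in the paragraphs that follow, stand against 28.5% of all genes tested called higher and 28.5% called lower. Among the mitotic kinases 4 of 5 were higher and 0 lower. Plk1, the Polo-like kinase that acts from mitotic entry to cytokinesis (ENSMUSG00000030867, mm10 chromosome 7, 122159439 to 122169873, plus strand), had 155, 155 and 159 CPM in Circ-INSR siRNA libraries, against 95.2, 90.9 and 91.2 CPM in control siRNA libraries. The groups were far apart, and the log2 fold change was 0.76 (SE 0.04), with edgeR adjusted p = 5.17e-08. Aurka, the Aurora kinase of centrosomes and spindle poles (ENSMUSG00000027496, chromosome 2, 172356190 to 172370535, minus strand), had 178, 174 and 179 CPM after Circ-INSR siRNA, against 118, 113 and 119 CPM in controls, a log2 fold change of 0.60 (SE 0.04) with edgeR adjusted p = 3.07e-07. Cdk1, the kinase of mitotic entry, averaged 157 ± 5.77 CPM in Circ-INSR siRNA cells and 122 ± 6.41 CPM in control siRNA cells (SD, n = 3 each). It rose by 0.37 (SE 0.05), and Nek2, which separates centrosomes, by 0.29 (SE 0.04). Aurkb, the Aurora kinase of the chromosomal passenger complex, was the exception, at 114, 117 and 122 CPM after Circ-INSR siRNA and 118, 115 and 119 CPM in controls. Its groups overlapped, with a log2 fold change of 0.00 (SE 0.04; edgeR adjusted p = 0.995).

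Of the cyclins and Cdc25 phosphatases 5 of 6 were higher and 0 lower. Ccnb1, the main mitotic cyclin (ENSMUSG00000041431, chromosome 13, 100778650 to 100786570, minus strand), had 183, 181 and 190.4 CPM after Circ-INSR siRNA, against 108, 114 and 115 CPM after control siRNA. Its log2 fold change was 0.72 (SE 0.04), with edgeR adjusted p = 1.03e-07. The processed pseudogene Ccnb1-ps had a mean of 973 counts after Circ-INSR siRNA and 510.3 in controls, against 10111 for Ccnb1 over all libraries, and how the authors counted reads that match both is not given in the sources used here. Cdc25b, a phosphatase that starts CDK1 activation, had 52.5, 53.8 and 54.0 CPM after Circ-INSR siRNA against 42.5, 44.2 and 42.5 CPM in controls and rose by 0.31 (SE 0.04), with edgeR adjusted p = 7.77e-05. Cdc25c, its relative, rose by 0.29 (SE 0.05). Ccnb2, the other B-type cyclin of the list, averaged 76.5 ± 3.77 CPM in Circ-INSR siRNA cells and 66.2 ± 2.23 CPM in control siRNA cells and rose by 0.21 (SE 0.05). Ccna2, the cyclin of S phase and G2, rose by 0.14 (SE 0.05) with edgeR adjusted p = 0.0324, and this call was lost in 6 of 17 alternative settings. Without control replicate 1 or 2, or Circ-INSR siRNA replicate 2 or 3, the adjusted p of Ccna2 was 0.0843 to 0.139. Ccnf, an F-box protein that is not a CDK partner, had 96.0, 89.9 and 92.6 CPM after Circ-INSR siRNA and 104, 102 and 92.4 CPM in controls, with a log2 fold change of -0.10 (SE 0.05) and edgeR adjusted p = 0.127.

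All 5 spindle checkpoint genes of the list were higher, while Mad1l1, a checkpoint gene outside the list, was lower at -0.58 (SE 0.05). Bub1, a checkpoint kinase at the kinetochore, had 65.9, 69.1 and 72.4 CPM in Circ-INSR siRNA libraries and 51.4, 52.3 and 52.4 CPM in control siRNA libraries, a log2 fold change of 0.41 (SE 0.05) with edgeR adjusted p = 1.57e-05. Ttk, the kinase MPS1 that starts checkpoint signalling, was among the lowest of the list in level, with 29.4, 28.2 and 29.3 CPM after Circ-INSR siRNA against 22.1, 23.2 and 22.8 CPM in controls. It rose by 0.35 (SE 0.05, edgeR adjusted p = 9.13e-05), and its groups did not overlap. The remaining genes encode parts of the inhibitor of the APC/C, and Bub1b, which encodes BUBR1, averaged 149 ± 3.5 CPM in Circ-INSR siRNA cells and 119 ± 6.07 CPM in control siRNA cells. It rose by 0.33 (SE 0.05), Bub3 by 0.19 (SE 0.05) and Mad2l1, which encodes MAD2, by 0.19 (SE 0.05). Without Circ-INSR siRNA replicate 3, Mad2l1 was not called (edgeR adjusted p = 0.0533).

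The genes of APC/C activity and chromatid release were higher in 3 of 4 cases. Cdc20, the activator that the checkpoint holds back (ENSMUSG00000006398, chromosome 4, 118432901 to 118437352, minus strand), had 230.3, 222 and 232 CPM after Circ-INSR siRNA, against 158, 151 and 154 CPM after control siRNA. Its CPM per exonic length was the highest of the list in both groups, and its log2 fold change was 0.57 (SE 0.04) with edgeR adjusted p = 4.31e-07. Espl1, which encodes separase, the protease that cuts cohesin, had 130.3, 129 and 129 CPM after Circ-INSR siRNA against 115, 108 and 96.3 CPM in controls and rose by 0.28 (SE 0.06, edgeR adjusted p = 0.00145). Ube2c, the ubiquitin-conjugating enzyme of the APC/C, rose by 0.22 (SE 0.05). Opposite-strand exons of Tnnc2 overlap 22.8% of the exonic length of Ube2c, Tnnc2 was itself higher by 0.93 on the log2 scale, and the strand setting of the counting is not given in the sources used here. Such overlaps, from 2.47% to 13.4% of exonic length, touch another 10 of the 46 genes, the largest shares being those of Ncapg, Cdc25c, Ccna2 and Prc1. Pttg1, which encodes securin, the inhibitor of separase, had 25.3, 25.4 and 23.3 CPM after Circ-INSR siRNA and 19.4, 21.7 and 24.7 CPM in controls. Control replicate 3 lay inside the range of the Circ-INSR siRNA group, and the log2 fold change was 0.17 (SE 0.08) with edgeR adjusted p = 0.0958. Without that library it was 0.27, with edgeR adjusted p = 0.0016, and without control replicate 1 it was 0.09, with edgeR adjusted p = 0.335.

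Of the centromere and kinetochore genes 2 of 7 were higher, 2 lower and 3 not called, shares close to the 28.5% of all genes tested called in each direction. Cenpa, the histone H3 variant that marks centromeres, had 138, 134 and 144 CPM after Circ-INSR siRNA, against 93.8, 92.1 and 104 CPM in controls, and rose by 0.52 (SE 0.06) with edgeR adjusted p = 8.33e-06. Cenpf, a large protein of the outer kinetochore, rose by 0.15 (SE 0.05) with edgeR adjusted p = 0.0195, which was 0.0537 to 0.0868 without Circ-INSR siRNA replicate 2 or 3. Cenpe, a kinesin motor at kinetochores, had 238, 248 and 247 CPM after Circ-INSR siRNA and 238, 237 and 225 CPM in controls, groups that overlapped, with a log2 fold change of 0.07 (SE 0.04) and edgeR adjusted p = 0.215.

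The NDC80 complex, which holds microtubule ends at the kinetochore, is built of the products of Ndc80, Nuf2, Spc24 and Spc25, and here lay the only 2 genes of the list called lower. Spc25 (ENSMUSG00000005233, chromosome 2, 69193895 to 69206194, minus strand) had 43.8, 47.6 and 47.7 CPM in Circ-INSR siRNA libraries, against 52.5, 56.5 and 64.9 CPM in control siRNA libraries. Every Circ-INSR siRNA library was below every control, with a log2 fold change of -0.32 (SE 0.07) and edgeR adjusted p = 0.00232. Spc24 (ENSMUSG00000074476, chromosome 9, 21755442 to 21760303, minus strand), whose product pairs with that of Spc25 on the inner side of the complex, had 46.3, 42.9 and 48.3 CPM after Circ-INSR siRNA and 54.0, 51.9 and 57.7 CPM after control siRNA. It too was separate between groups, at -0.25 (SE 0.06) with edgeR adjusted p = 0.0028. The genes of the outer pair overlapped between groups. Ndc80 had 74.5, 74.1 and 78.0 CPM after Circ-INSR siRNA and 76.4, 77.4 and 83.2 CPM in controls, with a log2 fold change of -0.07 (SE 0.05, edgeR adjusted p = 0.266). Nuf2 had 67.3, 65.7 and 68.2 CPM after Circ-INSR siRNA and 56.6, 63.0 and 67.4 CPM in controls, with a log2 fold change of 0.11 (SE 0.06, edgeR adjusted p = 0.152). Nuf2 was higher by 0.17 without control replicate 3 (edgeR adjusted p = 0.00465) and stood at 0.04 without control replicate 1 (edgeR adjusted p = 0.509). Ndc80 stood at -0.02 without control replicate 3.

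The 3 partners of Aurkb in the chromosomal passenger complex were all higher, although Aurkb was not called. Cdca8, which encodes borealin, had 165, 159 and 167 CPM after Circ-INSR siRNA, against 124, 119 and 131 CPM in controls, and rose by 0.39 (SE 0.05) with edgeR adjusted p = 2.36e-05. Birc5, which encodes survivin, had 65.9, 68.5 and 73.7 CPM after Circ-INSR siRNA against 51.0, 52.2 and 58.7 CPM in controls and rose by 0.36 (SE 0.06) with edgeR adjusted p = 0.000355. Incenp, the scaffold of the complex, averaged 169 ± 4.7 CPM in Circ-INSR siRNA cells and 139 ± 7.95 CPM in control siRNA cells and rose by 0.29 (SE 0.05).

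All 4 spindle assembly genes were higher. Dlgap5, which stabilises spindle microtubules at kinetochores, had 75.4, 75.7 and 76.7 CPM after Circ-INSR siRNA and 61.1, 58.5 and 58.3 CPM after control siRNA, a log2 fold change of 0.36 (SE 0.04) with edgeR adjusted p = 2.05e-05. Tpx2, the activator of Aurora A on the spindle, was abundant, at 390.2, 401 and 399 CPM after Circ-INSR siRNA against 329, 333 and 329.6 CPM in controls, and rose by 0.26 (SE 0.04, edgeR adjusted p = 9.12e-05). Nusap1, a microtubule-binding protein, rose by 0.22 (SE 0.05). Hmmr, the hyaluronan-mediated motility receptor that also acts at spindle poles, rose by 0.14 (SE 0.05) with edgeR adjusted p = 0.022, and its call was lost in 7 of 17 settings. Those include each library left out except control replicate 3, with an adjusted p of Hmmr of 0.0508 to 0.0766.

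Cytokinesis genes were higher in 3 of 4 cases. Ect2, the exchange factor that activates RhoA at the division plane (ENSMUSG00000027699, chromosome 3, 27097222 to 27153878, minus strand), had 215, 221 and 220.3 CPM in Circ-INSR siRNA libraries, against 138, 149 and 146 CPM in control siRNA libraries. Its groups were far apart, with a log2 fold change of 0.60 (SE 0.04) and edgeR adjusted p = 4.09e-07. Prc1, which bundles the microtubules of the midzone, had 339, 349.8 and 355 CPM after Circ-INSR siRNA against 262, 273 and 262 CPM in controls and rose by 0.39 (SE 0.04, edgeR adjusted p = 8.04e-06). Racgap1, the partner of Ect2 at the midzone, averaged 318 ± 2 CPM in Circ-INSR siRNA cells and 262 ± 1.1 CPM in control siRNA cells and rose by 0.28 (SE 0.04). Anln, the actin-binding scaffold anillin, had 545, 570.5 and 566 CPM after Circ-INSR siRNA and 534, 551 and 520.2 CPM in controls, with groups that overlapped, a log2 fold change of 0.07 (SE 0.04) and edgeR adjusted p = 0.179.

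**Figure D3:**
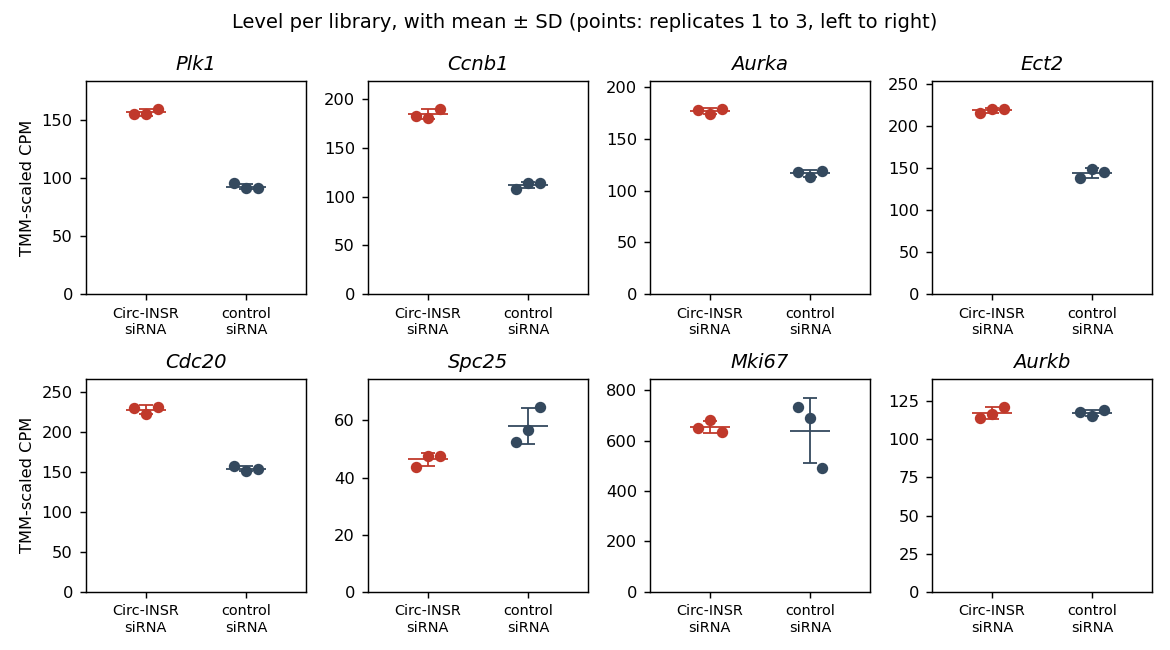
TMM-scaled CPM of 8 genes in each library (points), with the mean and SD of 3 libraries, Circ-INSR siRNA left and control siRNA right. Plk1, Ccnb1, Aurka, Ect2 and Cdc20 are separate and higher, Spc25 is separate and lower, Aurkb overlaps, and Mki67 has 1 low control at 493 CPM.

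Of the genes of chromosome condensation, with Top2a and the proliferation marker Mki67, 3 of 7 were higher and 4 were not called. Among all genes tested, 28.5% were called in each direction. Ncapd2, a regulatory subunit of condensin I, had 206, 206 and 208 CPM after Circ-INSR siRNA, against 163, 156 and 139.6 CPM in controls, and rose by 0.44 (SE 0.06) with edgeR adjusted p = 3.46e-05. Smc2, a core ATPase of condensins, had 244, 245 and 252 CPM after Circ-INSR siRNA against 199, 223 and 229 CPM in controls and rose by 0.19 (SE 0.05) with edgeR adjusted p = 0.0112. Smc4, its partner, was called at 0.21 (SE 0.07, edgeR adjusted p = 0.0318) although control replicate 3, at 449.5 CPM, lay above Circ-INSR siRNA replicate 1, at 449.1 CPM, and the call was lost in 7 of 17 settings. When any 1 library other than control replicate 3 was left out, the adjusted p of Smc4 was 0.0502 to 0.0946. Its log2 fold change was 0.13 without control replicate 1 and 0.31 without control replicate 3. The other subunits of condensin I were not called. Ncapg had 93.6, 97.7 and 98.1 CPM after Circ-INSR siRNA and 94.9, 105 and 103 CPM in controls, with a log2 fold change of -0.06 (SE 0.05, edgeR adjusted p = 0.299). Ncaph had 65.5, 69.4 and 71.4 CPM after Circ-INSR siRNA and 65.4, 69.1 and 66.5 CPM in controls, with a log2 fold change of 0.04 (SE 0.05, edgeR adjusted p = 0.529). Top2a, which untangles sister chromatids, had 542, 551 and 555 CPM after Circ-INSR siRNA and 519, 541 and 507 CPM in controls. Its groups did not overlap, but at 0.07 (SE 0.04) it did not pass the test (edgeR adjusted p = 0.139).

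Mki67, which encodes the surface protein of mitotic chromosomes Ki-67, had 649.9, 681 and 634 CPM after Circ-INSR siRNA and 736, 692 and 493 CPM after control siRNA. Control replicate 3 stood far below the other controls, and the log2 fold change was 0.03 with the largest error of the list (SE 0.15; edgeR adjusted p = 0.879). Without control replicate 3, Mki67 was lower after Circ-INSR siRNA, at -0.12 with edgeR adjusted p = 0.0109, and without control replicate 1 it was at 0.15 with edgeR adjusted p = 0.481. Foxm1, the transcription factor of the G2 wave, had 124, 127 and 125 CPM in Circ-INSR siRNA libraries and 93.0, 87.7 and 78.3 CPM in control siRNA libraries. It rose by 0.54 (SE 0.06), with edgeR adjusted p = 9.73e-06, and its groups did not overlap.

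Control replicate 3 differed from the other controls in this list as it did over all genes, where the chi-square per gene was 31.1 and 21.6 against control replicates 1 and 2, and 6.95 between those. On the log2 scale it lay below their mean by 0.53 in Mki67 and by 0.21 in Espl1 and Foxm1, and above it by 0.27 in Pttg1 and Smc4 and 0.25 in Spc25. Across the 46 genes, which all come from the same libraries, this deviation and log2 exonic length had a Pearson correlation of -0.43 (a description, n = 46 genes). Without that library 35 of the 46 genes were higher and 4 lower, with Pttg1 and Nuf2 added to the higher and Ccnf and Mki67 to the lower. Calls over all genes rose as well, to 5150 higher and 5064 lower of 17071 tested, against 4750 and 4745 of 16666 with all libraries. After each library was corrected for a trend with GC content and exonic length, 34 of the 46 genes were higher and 4 lower. Pttg1 was added to the higher and Ndc80 and Ncapg to the lower, and over all genes 5435 were higher and 4855 lower.

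**Figure D4:**
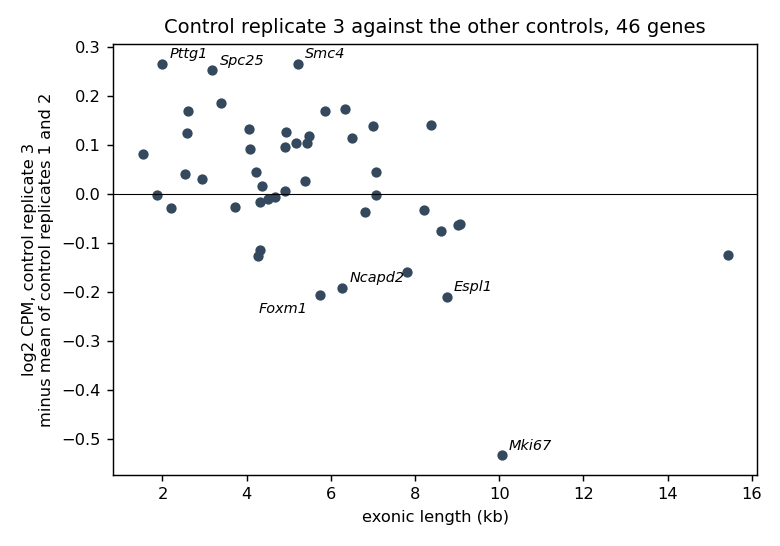
Log2 CPM in control replicate 3 minus the mean of control replicates 1 and 2 (y axis) against exonic length in kb (x axis), 1 point for each of the 46 genes. Most long genes lie below 0, with Mki67 lowest at -0.53, and Pttg1, Smc4 and Spc25 lie highest.

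Levels per exonic length put the genes in a similar order in both groups, with 8 of 46 moving by 5 or more places. Exonic length counts every annotated exon of a gene, 1868 bases for Cdc20 and 8390 for Mad2l1. The order therefore also depends on the annotation and is not a measure of transcript number. Cdc20 was first, with 122 ± 2.74 CPM per kb in Circ-INSR siRNA cells and 82.6 ± 1.76 CPM per kb in control siRNA cells (SD, n = 3 each), and Cdc25c last, with 5.06 ± 0.063 CPM per kb in Circ-INSR siRNA cells and 4.13 ± 0.182 CPM per kb in control siRNA cells. The median level was 30.0 CPM per kb after Circ-INSR siRNA and 24.3 CPM per kb after control siRNA. Plk1 stood at 71.1 ± 1.23 CPM per kb in Circ-INSR siRNA cells and 42.0 ± 1.1 CPM per kb in control siRNA cells, which is place 6 of the list after Circ-INSR siRNA and place 11 in controls. Ccnb1 stood at 43.8 ± 1.18 CPM per kb in Circ-INSR siRNA cells and 26.6 ± 0.793 CPM per kb in control siRNA cells, which is place 14 after Circ-INSR siRNA and place 21 in controls. Some neighbours in this order lay within each other's SD, as Ube2c and Tpx2 did in controls, at 70.9 ± 4.91 and 70.7 ± 0.442 CPM per kb. Across the 46 genes the log2 fold change had a Pearson correlation of 0.19 with log2 level per kb and -0.19 with log2 exonic length (descriptions, n = 46 genes of the same libraries).

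Proportions between some genes of the list were measured as 6 ratios of CPM per kb within each library. They were chosen after their values were seen and so are given without a test. The size of a ratio depends on the exonic lengths, which are the same in both groups, so it is not a proportion of subunits. The ratio of Aurka to Aurkb was 1.76 ± 0.0538 after Circ-INSR siRNA and 1.16 ± 0.0133 after control siRNA (SD, n = 3 each). That of Ccnb1 to Ccnb2 was 0.877 ± 0.0198 after Circ-INSR siRNA and 0.616 ± 0.0205 after control siRNA. The inner pair of the NDC80 complex, Spc24 and Spc25, to the outer pair, Ndc80 and Nuf2, stood at 1.46 ± 0.0231 after Circ-INSR siRNA and 1.79 ± 0.0495 after control siRNA. In mean CPM, not divided by length, both inner genes were below both outer genes in either group. Ncapd2 to the mean of Ncapg and Ncaph was 2.23 ± 0.0738 after Circ-INSR siRNA and 1.64 ± 0.167 after control siRNA. Foxm1 to Mki67 was 0.336 ± 0.00956 after Circ-INSR siRNA and 0.240 ± 0.0325 after control siRNA. The controls stood at 0.221, 0.222 and 0.278, the last in control replicate 3, where Mki67 was low. For these 5 ratios the groups did not overlap, which gives no support, as the ratios were chosen after their values were seen. Securin to separase (Pttg1 to Espl1) was 0.833 ± 0.0406 after Circ-INSR siRNA and 0.913 ± 0.193 after control siRNA, with overlapping groups.

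Of 149 further cell cycle genes in 9 lists 64 were higher and 28 lower, where 28.5% of all genes tested were called in each direction. The lists include E2F, retinoblastoma family and CDK inhibitor genes, which are not specific to mitosis. They had a median log2 fold change of 0.13, and in 8 of the 9 lists the median was between 0.03 and 0.19. Mitotic kinesins had the highest median, with 10 of 13 higher, 1 lower and a median of 0.25. They included Kif11, the motor that pushes spindle poles apart, which rose by 0.66 (SE 0.04), and Kif15, which backs it up, by 0.64 (SE 0.05, edgeR adjusted p = 1.63e-07 and 3.99e-07).

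Of 15 genes of entry kinases and phosphatase control 6 were higher and 3 lower, where 28.5% of all genes tested were called in each direction. Cdkn1a, which encodes the CDK inhibitor p21 and is a p53 target, had 366, 332 and 333 CPM in Circ-INSR siRNA libraries, against 787, 758 and 784 CPM in control siRNA libraries, a log2 fold change of -1.17 (SE 0.05) with edgeR adjusted p = 4.95e-09. Gtse1, a G2 protein and p53 target, had 135, 129 and 125 CPM after Circ-INSR siRNA against 239, 222 and 217 CPM in controls, a log2 fold change of -0.80 (SE 0.05, edgeR adjusted p = 1.36e-07). Among 18 genes of MuvB, DREAM and E2F 7 were higher and 5 lower, against the same 28.5% each way. Mybl2, which encodes B-MYB, had 167, 162 and 159 CPM after Circ-INSR siRNA and 109, 101 and 98.6 CPM after control siRNA and rose by 0.66 (SE 0.05) with edgeR adjusted p = 4.37e-07. Rb1, the retinoblastoma gene, had a log2 fold change of -0.62 (SE 0.05, edgeR adjusted p = 1.57e-06).

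The counts of the other lists stand against the same 28.5% of all genes tested called higher and 28.5% called lower. Of 16 APC/C genes 7 were higher and 4 lower, with the subunit gene Anapc11 at -1.08 (SE 0.06) and Cdc16 at 0.55 (SE 0.04). Of 33 other kinetochore and centromere genes 12 were higher and 6 lower, with the checkpoint gene Mad1l1 at -0.58 (SE 0.05) and Ska2, of a complex that tracks microtubule ends, at 0.52 (SE 0.06). Cohesin genes were higher in 7 of 13 cases and lower in 1, with the subunit gene Stag1 at 0.88 (SE 0.05) and Wapl, which releases cohesin, at 0.48 (SE 0.05). Of 26 spindle and centrosome genes 10 were higher and 5 lower (Tacc1 at 0.77, Ckap2l at 0.54), and of 12 further cytokinesis and midbody genes 5 were higher and 2 lower (the septin gene Sept2 at -0.56, Pdcd6ip, which encodes ALIX, at -0.37). Of the 3 genes specific to condensin II, Ncaph2 was called at -0.11 (SE 0.04), a call lost when any 1 library other than control replicate 3 was left out (edgeR adjusted p of 0.0522 to 0.114). In the edgeR test the adjusted p was 3.30e-08 for Anapc11 and 0.0305 for Ncaph2, the smallest and the largest of the genes named in this paragraph.

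**Figure D5:**
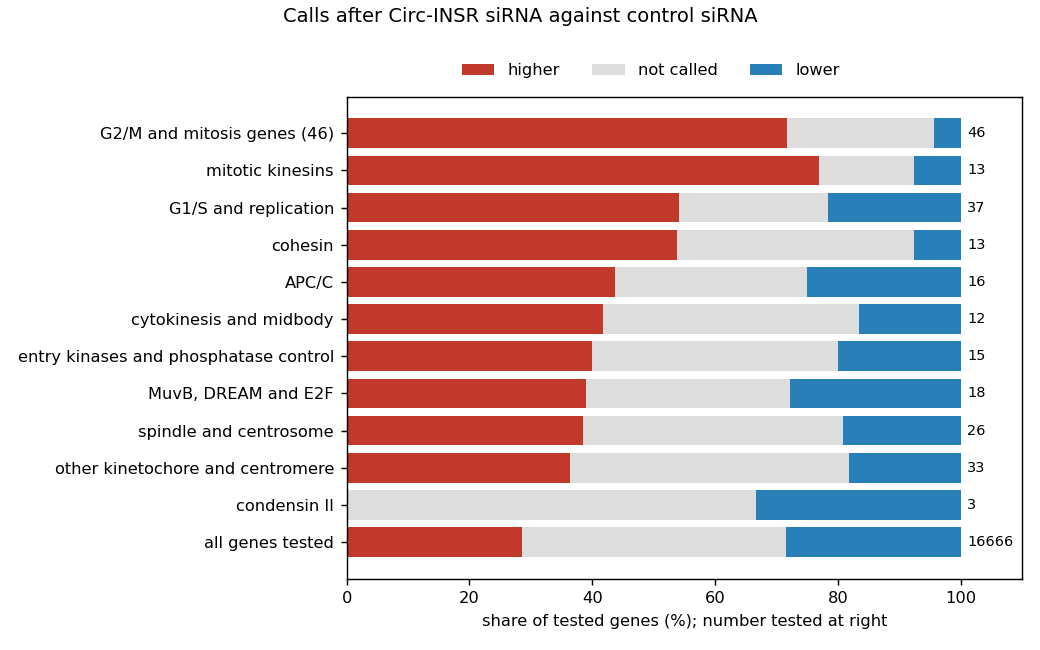
Share of tested genes called higher, not called and called lower (x axis, %) in the 46 G2/M and mitosis genes, in 10 further lists and in all genes tested, with the number tested at the right. The 46 genes and the 13 mitotic kinesins have the largest shares called higher of the lists shown.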

How the data were processed

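Each library's deposited file holds read counts by Ensembl gene ID, not normalized. Per the labels' protocols, RNA was poly(A)-selected and libraries were directional (NEBNext Ultra II). The submitters' processing notes name the build mm10 and, with no role, featureCounts 1.6.4, STAR 2.5.0c, StringTie 1.3.5, Trim Galore, MultiQC 1.7, FastQC 0.11.4 and bcl2fastq. How strand and multi-mapping reads were handled, and the annotation release, was not given in the sources used here. In each library more genes had a count of 2 than of 1, so both mates of a pair may have been counted, and counts were also halved.

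Symbols, positions and exonic lengths came from GENCODE M21 (same build), which held 36308 of 38087 IDs (95.33%). Exonic length was the union of all annotated exons of a gene. Groups were compared across all genes with edgeR 4.0.16 in R 4.3.3: filterByExpr (minimum count 10, minimum total 15), TMM factors of 0.983 to 1.03, and a robust quasi-likelihood F-test with group as the only term, adjusted by Benjamini-Hochberg over 16666 genes at 0.05. SE was taken as the size of the log2 fold change over the root of F. The common biological coefficient of variation was 6.09%. A count of 3 is 0.0389 to 0.0500 CPM. The fit was tried on simulated data in which few genes changed. That trial does not cover data like these, where 57% of genes tested were called. Promoters were searched in Python 3.11.15.

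The members, lists and tests were chosen with earlier results of these data known. All members are named, with per-library values for the 2 of smallest adjusted p in each role, those lower and those not called; of each further list the 2 called genes of smallest adjusted p are named. Values per library of other genes are given where a sentence turns on them. Alternatives were other scalings and filters, each library left out, a block for replicate number, limma-voom (limma 3.58.1), DESeq2 1.42.0, halved counts, a length and GC trend removed and, chosen after seeing the data, thinning to the lowest total.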

Additional observations from a re-analysis of the deposited data

How the results depend on the processing

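Of the 46 genes, 32 kept direction and side of the threshold in all 17 alternative settings. The count of members higher was 27 with total counts, 30 with upper-quartile factors, 34 with the length and GC trend removed, and 28 to 35 when 1 library was left out. All genes called higher were 4130, 4466, 5435 and 4209 to 5150 in the same settings, against 4750 in the main fit. Members lower were 4 with that trend removed and 2 to 4 with a library left out, the 4 being without control siRNA replicate 3. All genes called lower were 4855 with that trend removed and 4148 to 5064 with a library left out. The median log2 fold change of members was 0.20 with total counts, where that of all genes was -0.05 and members lower were 3, and 0.23 to 0.27 with a library left out. Genes with a small change turned sign. Aurkb was -0.019 with upper-quartile factors, -0.045 with total counts, -0.0116 with at least 1 CPM in 3 libraries, -0.0024 with halved counts, -0.0078 with libraries thinned, and -0.022 to 0.025 with a library left out. With total counts Ncaph was -0.0077 and Mki67 -0.0105, and Mki67 was -0.12 to 0.15 with a library left out, the lowest without control siRNA replicate 3. Total counts ended the calls of Ccna2, Mad2l1, Cenpf, Hmmr, Smc2 and Smc4. Ncaph2, outside the list, was not called in 7 settings.

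Replicate numbers did not meet the rule for pairing: deviations of same-numbered libraries correlated at 0.04, 0.14 and 0.12, though each library correlated best with its own number, a hint from the data and not the design. With the replicate block 33 members were higher and 2 lower, and 4968 of all genes were higher and 4900 lower, against 4750 and 4745 without it. Depth did not limit these genes, with at least 1175 counts each, and how many independent fragments these are is unknown.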

Other observations

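Of 37 genes of G1/S and replication, the earlier part of the same cycle, 20 were higher after Circ-INSR siRNA and 8 lower, where 28.5% of all genes tested were called in each direction. The median log2 fold change was 0.12, against 0.24 for the 46 genes of G2/M and mitosis. The difference between the lists was not tested. Ccnd3, a D-type cyclin, had 177, 174 and 173 CPM after Circ-INSR siRNA and 96.2, 98.4 and 99.6 CPM after control siRNA, and Cdk4, its kinase partner, had 235, 229.9 and 239 CPM after Circ-INSR siRNA and 134, 132 and 147 CPM in controls (log2 fold changes of 0.83 (SE 0.04) and 0.77 (SE 0.05); edgeR adjusted p = 1.98e-08 and 1.41e-07). Ccnd1, another D-type cyclin, was lower, with 17.6, 17.4 and 19.3 CPM after Circ-INSR siRNA and 39.4, 36.4 and 34.2 CPM after control siRNA (log2 fold change of -1.02, SE 0.07, edgeR adjusted p = 1.48e-07). It was named after its value was seen.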
